A study of Mus musculus with 6 samples.

Results

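De novo lipogenesis, the making of fatty acids from acetyl-CoA, was examined through 10 genes: the transcription factor genes Srebf1 (SREBP-1) and Mlxipl (ChREBP), the enzyme genes Acly, Acaca, Acacb, Fasn, Elovl6, Scd1 and Me1, and Thrsp (Spot 14). The members are a named list of enzymes and their regulators, 10 of the 55536 gene identifiers in the deposited files. All 10 passed the filter on low counts that left 15589 genes for testing. RNA was measured by sequencing in the liver of fasted mice. One group, labelled WT, was wild type, and the other, labelled CREBH-K.O, lacked CREBH, a membrane-bound transcription factor of hepatocytes encoded by Creb3l3. Both groups had been fasted overnight for 14 h, and each held 3 samples. The labels give no strain, age, deleted exon or tissue restriction of the knockout, and do not say that each sample came from its own mouse, so p-values measure the spread between these samples. Reads counted in genes numbered 28106243 to 39288819 per library. Creb3l3 itself was at 467, 496 and 495 CPM (counts scaled to the size of the library) in WT 1 to 3 and at 57.4, 45.0 and 46.4 CPM in CREBH-K.O 1 to 3, which matched the labels.

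In the liver, insulin raises SREBP-1, a factor that is held in the membrane of the endoplasmic reticulum by SCAP and INSIG proteins and is cut loose in the Golgi to enter the nucleus. Sugar metabolites activate ChREBP, which binds DNA with its partner MLX. Together these factors drive the enzymes that turn citrate into acetyl-CoA (ATP citrate lyase, Acly), acetyl-CoA into malonyl-CoA (the acetyl-CoA carboxylases, Acaca and Acacb), malonyl-CoA into palmitate (fatty acid synthase, Fasn), and palmitate into longer and unsaturated fatty acids (Elovl6 and Scd1). Fasting is known to turn this program down, and no fed group was analysed here.

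Of the 10 genes, 5 fell in CREBH-K.O (Thrsp, Scd1, Srebf1, Elovl6 and Fasn), none rose and 5 did not pass the test (Acaca, Me1, Mlxipl, Acacb and Acly). The test was edgeR's quasi-likelihood test over all genes, with calls made at 0.05 after Benjamini-Hochberg adjustment. By this rule 10.4% of all tested genes changed, 6.46% lower and 3.91% higher. Of the 5, Srebf1, Scd1 and Thrsp were at least 2-fold lower, as were 1.76% of all tested genes. The genotypes did not overlap for 6 of the 10 genes, each time with CREBH-K.O below WT. Of all tested genes 30.6% did not overlap, and 15.7% had CREBH-K.O below WT. The median log2 fold change (CREBH-K.O minus WT) of the 10 was -0.47, from -1.90 to 0.16, and that of all tested genes was 0.025. Of the 2 transcription factor genes, Srebf1 fell and Mlxipl did not pass. Of the enzymes, Fasn, Elovl6 and Scd1, the later steps of the chain, fell, while Acly, Acaca and Acacb did not pass. Acaca was nearest to a call among these, at a log2 fold change of -0.34 without overlap, so the divide along the chain depends on the threshold. The number of calls depended on the libraries. It was 6 without WT 1, 4 without WT 3 or CREBH-K.O 1, 3 without CREBH-K.O 2, and 2 without WT 2 or CREBH-K.O 3. Labels of CREBH-K.O 2 and 3 report a lost file of first reads; with CREBH-K.O 1 alone against WT, 1 member (Fasn) was called. The spread in that fit comes from WT alone, and the lone library is assumed to vary like WT, so its calls are no replicate check.

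**Figure D1:**
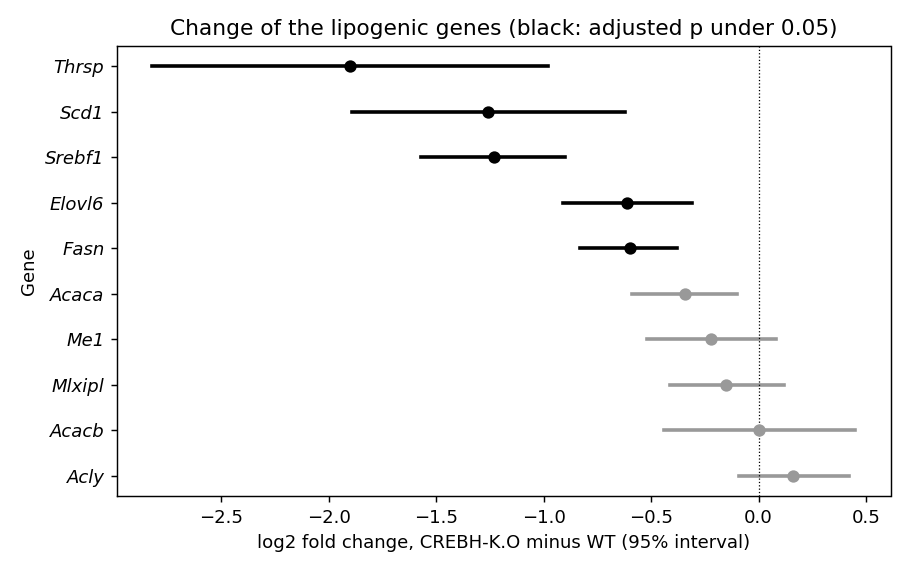
Log2 fold change of each of the 10 lipogenic genes, CREBH-K.O minus WT, with its 95% interval before adjustment for many genes (edgeR, n = 3 per genotype). The 5 genes in black passed the test, and all 5 lie below 0, from Thrsp at -1.90 to Fasn at -0.60.

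The 250 bases before the annotated start are shown for 4 members, because SREBP-1 and ChREBP act at such sites and because these 4 hold both regulator genes and, besides, an enzyme gene that fell (Fasn) and an enzyme gene that did not pass (Acly). They come from RefSeq on GRCm38.p6, 5′ to 3′ on the strand of the gene. Capitals mark exact matches, on either strand, so that a match may be printed as its reverse complement. The motifs marked were the NF-Y box CCAAT, the Sp1 box GGGCGG, and the palindromic E-box CACGTG, none of which contains another. NF-Y and Sp1 are general promoter factors that are known to act with SREBP, and ChREBP is known to bind pairs of E-boxes. Srebf1 has 3 annotated starts, and the one farthest upstream is shown, at chr11:60222582-60222831 on the minus strand. The others are Mlxipl at chr5:135089640-135089889 on the plus strand, the first of its 2 starts, Fasn at chr11:120824548-120824797 on the minus strand and Acly at chr11:100528001-100528250 on the minus strand. None of these 4 windows overlapped an exon in GENCODE M21, and the 30 bases after each start were in a GENCODE transcript, which did not hold for the other 2 starts of Srebf1. Gene counts do not tell which start of Srebf1 or Mlxipl was in use in these livers. The third Srebf1 window, not shown, held both an NF-Y box and Sp1 boxes.
Srebf1: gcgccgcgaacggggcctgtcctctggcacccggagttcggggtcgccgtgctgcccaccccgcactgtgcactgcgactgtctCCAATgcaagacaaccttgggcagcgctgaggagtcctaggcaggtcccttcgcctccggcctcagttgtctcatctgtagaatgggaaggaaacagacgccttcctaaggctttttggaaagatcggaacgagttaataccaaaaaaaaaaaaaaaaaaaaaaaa
Mlxipl: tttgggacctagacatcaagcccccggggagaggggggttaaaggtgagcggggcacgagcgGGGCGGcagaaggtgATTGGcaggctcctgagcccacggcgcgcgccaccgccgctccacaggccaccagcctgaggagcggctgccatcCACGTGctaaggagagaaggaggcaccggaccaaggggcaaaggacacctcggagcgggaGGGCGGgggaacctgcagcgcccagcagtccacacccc
Fasn: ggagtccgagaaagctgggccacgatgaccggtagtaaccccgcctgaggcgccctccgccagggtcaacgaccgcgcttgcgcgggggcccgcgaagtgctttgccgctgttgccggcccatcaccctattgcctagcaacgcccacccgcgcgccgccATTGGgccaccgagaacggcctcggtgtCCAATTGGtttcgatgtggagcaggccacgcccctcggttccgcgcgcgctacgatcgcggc
Acly: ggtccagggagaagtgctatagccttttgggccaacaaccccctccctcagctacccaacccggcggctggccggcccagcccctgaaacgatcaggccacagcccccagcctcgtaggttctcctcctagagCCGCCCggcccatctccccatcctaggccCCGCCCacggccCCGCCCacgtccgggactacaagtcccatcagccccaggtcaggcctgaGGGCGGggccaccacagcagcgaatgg

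Promoter windows were found for 9 of the 10 members (13 starts), and none for Scd1. The only Acaca window (chr11:84195188-84195437) and the only Acacb window (chr5:114165268-114165517) lay inside their genes. GENCODE places the gene starts upstream of them, at 84129672 and 114146535. Matches in these windows, or their absence, therefore do not describe the bases before the first start of either gene. Of the 250 bases, 180 lay in GENCODE exons in the Thrsp window, 39 in the first of Me1, 31 in Elovl6, 9 in Acacb and 0 in the others. The NF-Y box was in 7 of the 13 windows, against 33.8% of all 32851 windows. By gene, with any of its starts counted, it was found in 3 of the 4 members that fell and had a window (Srebf1, Fasn and Thrsp) and in 3 of the 5 that did not pass (Mlxipl, Acacb and Me1). In Fasn it occurred 3 times, 2 of them overlapping from 62 to 55 bases before the start, and in Thrsp it occurred 2 times. The Sp1 box was in 5 of the 13 windows, against 32.7% of all. By gene it was found in 1 of 4 members that fell, only at the Srebf1 starts not shown, and in 3 of 5 that did not pass. One E-box stood 98 to 93 bases before the first Mlxipl start, and 6.02% of all windows held one. A carbohydrate response element, searched as 2 of these exact E-boxes with 5 bases between them, was in 0 of the 32851 windows of all genes. That search therefore could not tell the members from other genes, and looser pairs of E-boxes were not searched. The sterol regulatory element in its full form was in no member window (0.0731% of all). A looser form, TCACNCCAC, which every full match also holds, was in 1, before the second Mlxipl start (1.05% of all). The cAMP response element TGACGTCA and the TGACG within it, of the kind that CREB family factors bind, were in no member window, against 1.55% and 17.8% of all. The TATA box TATAAA was in the Acacb window and in 12.4% of all. These matches are descriptions of letters in a short window.

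Among the regulators, Srebf1 (ENSMUSG00000020538, chromosome 11, 60199089 to 60222581, minus strand, GRCm38) encodes SREBP-1a and SREBP-1c from different first exons, which gene counts do not separate. It was at 63.6, 89.9 and 98.7 CPM in WT 1, 2 and 3 and at 37.5, 34.6 and 35.1 CPM in CREBH-K.O 1, 2 and 3. The groups did not overlap, and the CREBH-K.O libraries lay close together (coefficient of variation 4.37%, against 21.7% in WT). The mean fell from 84.1 ± 18.3 to 35.7 ± 1.56 CPM (SD, n = 3), to 42.5% of WT, a log2 fold change of -1.23 ± 0.15 SE (95% interval -1.57 to -0.90, edgeR adjusted p = 0.00147). Its call was kept without any 1 library, at log2 fold changes of -1.41 to -1.11, and was lost with CREBH-K.O 1 alone against WT (-1.19, adjusted p = 0.0727).

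Mlxipl (ENSMUSG00000005373, chromosome 5, 135089890 to 135138382, plus strand) encodes the sugar-responsive factor ChREBP. Its WT values of 239, 218 and 215 CPM were bracketed by the CREBH-K.O values of 192, 175 and 241 CPM, so the groups overlapped. Mlxipl did not pass (log2 fold change -0.15 ± 0.12 SE, edgeR adjusted p = 0.482). The 95% interval ran from -0.41 to 0.12, which leaves out a fall of the size seen in Srebf1.

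The carbon for lipogenesis leaves the mitochondrion as citrate, which ATP citrate lyase splits in the cytosol. Its gene Acly (ENSMUSG00000020917, chromosome 11, 100476353 to 100528000, minus strand) was at 81.5, 90.2 and 94.7 CPM in WT and at 83.4, 108 and 107 CPM in CREBH-K.O. CREBH-K.O 2 and 3 stood above all WT libraries and CREBH-K.O 1 among them. Acly did not pass (log2 fold change 0.16 ± 0.11 SE, 95% interval -0.090 to 0.42, edgeR adjusted p = 0.408), and with CREBH-K.O 1 alone its value was -0.11. Me1 (ENSMUSG00000032418, chromosome 9, 86581371 to 86695953, minus strand), the cytosolic malic enzyme that supplies NADPH, was at 147, 142 and 103 CPM in WT and 105, 124 and 107 CPM in CREBH-K.O. WT 3 was the lowest of all 6 libraries for Me1, and the gene did not pass (-0.22 ± 0.13 SE, 95% interval -0.52 to 0.080, adjusted p = 0.344).

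The 2 acetyl-CoA carboxylases make malonyl-CoA, Acaca in the cytosol mainly for synthesis and Acacb at the mitochondrial surface, where malonyl-CoA holds back the entry of fatty acids. Acaca (ENSMUSG00000020532, chromosome 11, 84129672 to 84401651, plus strand) was at 41.2, 53.0 and 45.4 CPM in WT and at 39.0, 37.5 and 33.5 CPM in CREBH-K.O. The groups did not overlap, by a margin of 41.2 to 39.0 CPM. Acaca did not pass (log2 fold change -0.34 ± 0.11 SE, edgeR adjusted p = 0.0822), though its 95% interval before adjustment, -0.59 to -0.10, lay below 0. Leaving out WT 1 brought it past the threshold (-0.43, adjusted p = 0.0339), and so did testing without the low-count filter (-0.37, adjusted p = 0.0220). Acacb (ENSMUSG00000042010, chromosome 5, 114146535 to 114250761, plus strand) was at 35.1, 62.7 and 46.3 CPM in WT and at 49.1, 55.6 and 39.7 CPM in CREBH-K.O. All 3 CREBH-K.O values lay within the WT range, and the gene did not pass (0.004 ± 0.20 SE, 95% interval -0.44 to 0.45, adjusted p = 0.993). Its sign turned with the library left out (-0.19 without WT 1, 0.24 without WT 2).

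Fatty acid synthase builds palmitate from malonyl-CoA. Fasn (ENSMUSG00000025153, chromosome 11, 120805846 to 120824547, minus strand) was at 118, 125 and 112 CPM in WT and at 72.4, 89.6 and 72.7 CPM in CREBH-K.O, with no overlap. It fell from 119 ± 6.17 to 78.2 ± 9.87 CPM (SD, n = 3), to 65.9% of WT (log2 fold change -0.60 ± 0.10 SE, edgeR adjusted p = 0.00674). Its call was kept without any 1 library (adjusted p of 0.00534 to 0.0380), as was that of Srebf1.

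Elovl6, the elongase that turns palmitate into stearate, and Scd1, the stearoyl-CoA desaturase that turns stearate into oleate, act on the product of fatty acid synthase. Elovl6 (ENSMUSG00000041220, chromosome 3, 129532355 to 129638495, plus strand) was at 35.6, 50.7 and 39.8 CPM in WT and at 26.1, 30.3 and 26.0 CPM in CREBH-K.O. The groups did not overlap, and the gene fell to 65.5% of WT (-0.61 ± 0.13 SE, edgeR adjusted p = 0.0220), close to the 65.9% of Fasn. It no longer passed when WT 2 was left out (-0.46, adjusted p = 0.0631), or CREBH-K.O 1 (-0.58, 0.0576) or CREBH-K.O 3 (-0.57, 0.0850).

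Scd1 (ENSMUSG00000037071, chromosome 19, 44394455 to 44407879, minus strand) was at 4836, 8123 and 4435 CPM in WT and at 3414, 2069.8 and 1797 CPM in CREBH-K.O. WT 2 was the highest library by far and CREBH-K.O 1 the highest of its group, and the groups did not overlap. The mean went from 5798 ± 2023 to 2427 ± 866 CPM (SD, n = 3), a fall to 41.9% of WT (-1.26 ± 0.28 SE, edgeR adjusted p = 0.0243). The test was not passed with WT 2 left out (-0.94, adjusted p = 0.0803), nor without CREBH-K.O 2 (-1.15, 0.0955) or CREBH-K.O 3 (-1.08, 0.0891). Scd1 alone took 0.431% to 0.785% of all counts in WT libraries and 0.184% to 0.342% in CREBH-K.O libraries.

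Thrsp (ENSMUSG00000035686, chromosome 7, 97412938 to 97417730, minus strand) encodes Spot 14, a small nuclear and cytosolic protein that is known to promote lipogenesis and responds to thyroid hormone and carbohydrate. It was at 14.5, 35.4 and 38.3 CPM in WT and at 12.5, 5.17 and 5.78 CPM in CREBH-K.O. WT 1 stood far below the other WT libraries and just above CREBH-K.O 1, and with that margin the groups did not overlap. Thrsp had the largest fall of the 10 genes and also the widest interval (-1.90 ± 0.41 SE, 95% interval -2.82 to -0.98, edgeR adjusted p = 0.0207), to 26.8% of WT. Leaving out WT 2 ended the call (-1.75, adjusted p = 0.0772), as did leaving out WT 3 (-1.66, 0.0521), CREBH-K.O 2 (-1.68, 0.0830) or CREBH-K.O 3 (-1.72, 0.0821).

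**Figure D2:**
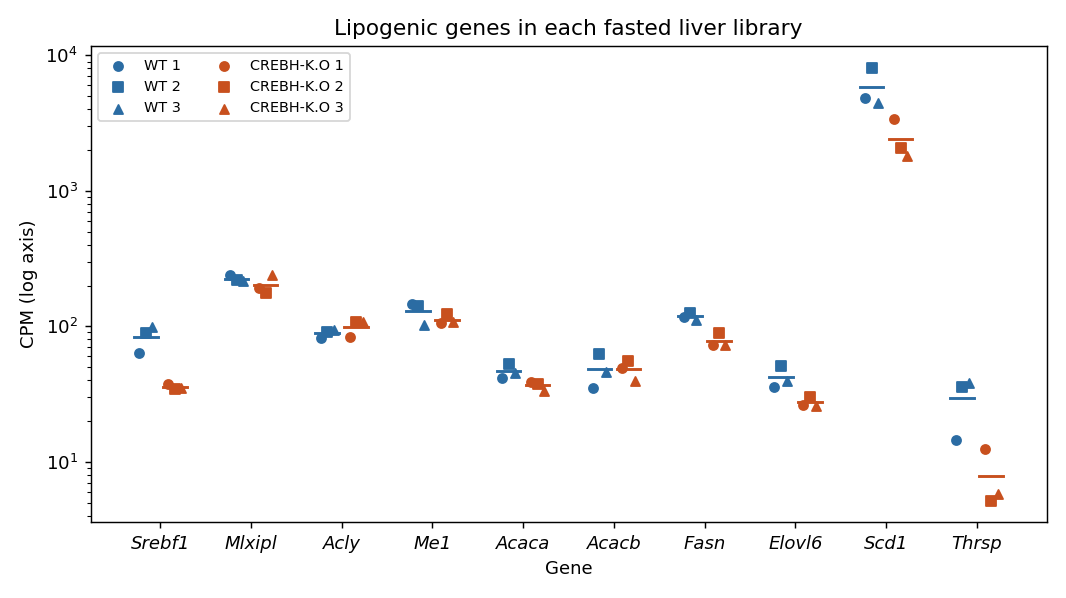
CPM of each lipogenic gene in each library on a log axis, with WT in blue and CREBH-K.O in orange, 1 symbol per library and a bar at the mean of 3. Scd1 stands far above the others in every library, Srebf1, Fasn, Acaca, Elovl6, Scd1 and Thrsp show no overlap between genotypes, and Thrsp in WT 1 (14.5 CPM) sits next to CREBH-K.O 1 (12.5 CPM).

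**Figure D3:**
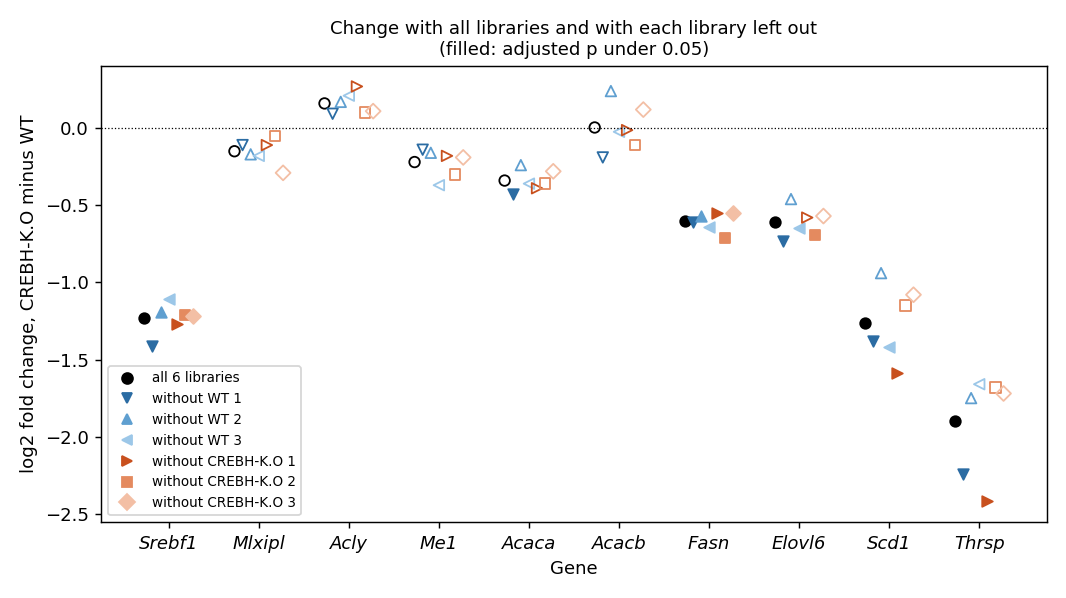
Log2 fold change of each gene with all 6 libraries and with each library left out in turn, filled where the adjusted p (edgeR) is under 0.05. Srebf1 and Fasn stay filled throughout, Scd1, Elovl6 and Thrsp open up when some libraries are left out, and Acacb scatters around 0 from -0.19 to 0.24.

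Compared per kilobase of exon, the order of levels in WT was Scd1 (1185 CPM per kb), Mlxipl (40.5), Me1 (33.9), Acly (16.8), Srebf1 (14.9), Thrsp (13.4), Fasn (10.8), Elovl6 (6.53), Acacb (4.99) and Acaca (2.72). The ranges over the WT libraries overlapped between neighbours for Acly and Srebf1, Srebf1 and Thrsp, Thrsp and Fasn, and Elovl6 and Acacb. In CREBH-K.O the order was Scd1 (496 CPM per kb), Mlxipl (36.6), Me1 (29.1), Acly (18.8), Fasn (7.14), Srebf1 (6.34), Acacb (5.00), Elovl6 (4.27), Thrsp (3.58) and Acaca (2.15). Here the neighbours Mlxipl and Me1, Fasn and Srebf1, Acacb and Elovl6, and Elovl6 and Thrsp overlapped. The top 4 and the last place were the same in both orders, while Thrsp went from the sixth place to the ninth. Scd1 made up 84.8% to 90.4% of the summed CPM of the 10 genes in WT and 72.9% to 84.7% in CREBH-K.O.

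Ratios between related genes within a library do not depend on how libraries are scaled, and 5 pairs were compared per kilobase of exon by two-sided exact permutation tests, for which 0.10 is the smallest p that 3 against 3 allows. Relative to Srebf2, the gene of the sterol-regulating SREBP-2, Srebf1 was at ratios of 1.19, 1.95 and 2.18 in WT and of 0.921, 0.702 and 0.805 in CREBH-K.O. Srebf1 thus exceeded Srebf2 in every WT library and lay below it in every CREBH-K.O library (log2 difference -1.09 ± 0.29 SE, exact p = 0.10, adjusted over the 5 pairs 0.125). The ratio of Scd1 to its relative Scd2 was 1194, 1115 and 842 in WT and 689, 475 and 381 in CREBH-K.O (-1.06 ± 0.29 SE, exact p = 0.10). The ratio of Elovl6 to Elovl5, an elongase of polyunsaturated fatty acids, moved the other way, from 0.0403, 0.0461 and 0.0420 in WT to 0.0663, 0.0775 and 0.0755 (0.77 ± 0.090 SE, exact p = 0.10), with log2 fold changes of -1.37 for Elovl5 and -0.61 for Elovl6. Acacb over Acaca was at 1.51, 2.10 and 1.81 in WT and at 2.23, 2.63 and 2.10 in CREBH-K.O, WT 2 and CREBH-K.O 3 both standing at 2.10 (0.37 ± 0.17 SE, exact p = 0.10). Mlxipl over its partner Mlx averaged 3.86 ± 0.308 in WT and 3.87 ± 0.555 in CREBH-K.O (SD, n = 3; exact p = 1.00).

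**Figure D4:**
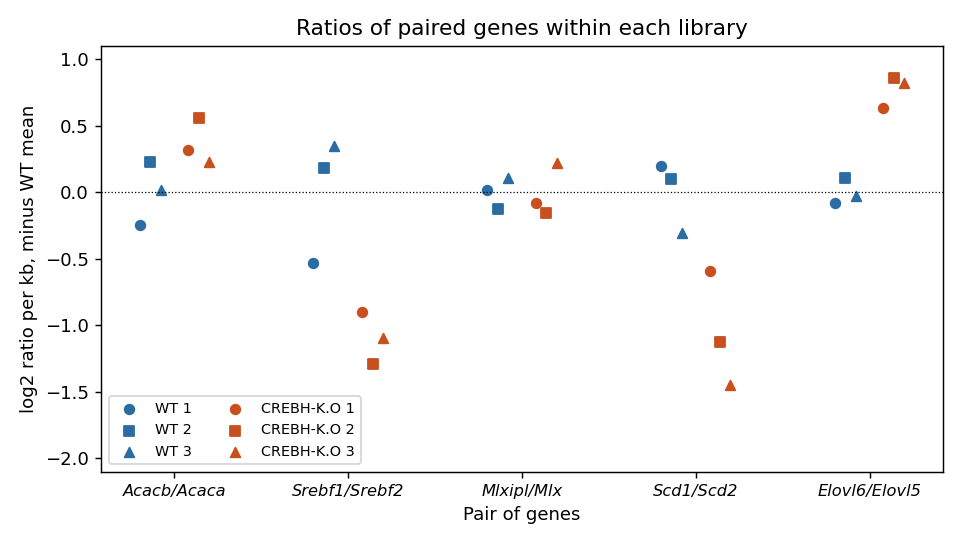
Log2 ratio of 5 pairs of genes per kilobase within each library, minus the WT mean of that pair, with WT in blue and CREBH-K.O in orange. The CREBH-K.O libraries lie below WT for Srebf1/Srebf2 and Scd1/Scd2, above WT for Elovl6/Elovl5 and around it for Mlxipl/Mlx.

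The genes around the 10 members were read from 7 lists that exclude them. The count of each list is to be read against the 10.4% of all tested genes that were called, 6.46% lower and 3.91% higher. Of 18 genes that process SREBP-1 or act on its gene, 2 fell and none rose, with a list median of -0.11. That count is near the share over all tested genes, so it sets the list apart in no way. Insig2, which holds SCAP and SREBP in the endoplasmic reticulum, fell from 299.5 ± 28.4 to 203 ± 32.5 CPM (-0.56 ± 0.12 SE, edgeR adjusted p = 0.0212). Rxra, the partner receptor of LXR and PPAR, fell from 590.1 ± 44.5 to 423 ± 10.6 CPM (-0.48 ± 0.084 SE, adjusted p = 0.00849). Insig1 (-0.092, adjusted p = 0.669), Scap (-0.27, 0.107), Srebf2 (-0.12, 0.505) and the LXR-alpha gene Nr1h3 (0.12, 0.358) did not pass. Rxra did not pass when WT 2 was left out (adjusted p = 0.0513), and Insig2 did not without WT 2 (0.0901), CREBH-K.O 2 (0.0840) or CREBH-K.O 3 (0.0830), while 5 genes of the list were called without WT 1, Scap among them (-0.36, adjusted p = 0.0375).

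On the ChREBP side, 3 of 16 genes of partners, sugar entry and known targets rose, 1 fell and 12 did not pass, with a list median of -0.023. Slc2a2, the glucose transporter GLUT2, fell from 265 ± 36.9 to 125 ± 13.9 CPM (-1.09 ± 0.12 SE, edgeR adjusted p = 0.00107). Txnip, a glucose-responsive gene, rose from 87.5 ± 12.0 to 138 ± 33.4 CPM (0.66 ± 0.17 SE, adjusted p = 0.0420), with G6pc, the glucose-6-phosphatase gene (0.74), and Tm6sf2, a gene of lipoprotein assembly (0.54). Pklr, the liver pyruvate kinase and a standard ChREBP target, did not pass (-0.23 ± 0.10 SE, adjusted p = 0.176), nor did Mlx (-0.16, 0.371). The calls of Txnip (without WT 1, WT 2, CREBH-K.O 1 or CREBH-K.O 3, adjusted p up to 0.156), G6pc (without any 1 library except WT 1, up to 0.143) and Tm6sf2 (without WT 2 or CREBH-K.O 2, up to 0.0803) were lost, and no gene of the list was called higher without WT 2.

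Of 17 tested genes among 18 other SREBP-1 targets and fatty acid synthesis genes, 9 fell and none rose, with a list median of -0.35. In order of size these were Fads2, a desaturase gene (-3.06 ± 0.15 SE), the acetoacetyl-CoA synthetase gene Aacs (-1.73), which supplies lipid synthesis from ketone bodies, the elongase genes Elovl2 (-1.64) and Elovl5 (-1.37), and the desaturase gene Fads1 (-1.35), followed by Acss2, Mcat, Dgat2 and Oxsm at -0.45 to -0.35 (edgeR adjusted p of 1.64e-05 to 0.0400 over the 9). Scd2 (-0.24, adjusted p = 0.538) and Mid1ip1, the relative of Thrsp (-0.19, 0.361), did not pass. The lipogenic target Pnpla3 was not tested, at 0.0259 to 0.0325 CPM in WT and 0.122 to 0.176 CPM in CREBH-K.O. The number that fell was 5 without WT 2, CREBH-K.O 2 or CREBH-K.O 3, and 6 without WT 3 or with scaling by library size alone or upper-quartile factors.

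Of 11 genes of citrate export and cytosolic acetyl-CoA, 5 fell and none rose (list median -0.29): the pyruvate carboxylase gene Pcx (-0.75), the dicarboxylate carrier Slc25a10 (-0.74), the pyruvate carrier subunit Mpc1 (-0.71), the cytosolic aconitase Aco1 (-0.45) and the citrate synthase Cs, whose log2 fold change was -0.34 (edgeR adjusted p of 0.00244 to 0.0469). The citrate carrier Slc25a1, which feeds ATP citrate lyase, did not pass (-0.19 ± 0.094 SE, adjusted p = 0.244). The calls of Pcx (without WT 2, CREBH-K.O 2 or CREBH-K.O 3) and Aco1 (without WT 2 or CREBH-K.O 3) were lost, with adjusted p up to 0.0725, and the list's count was 2 without WT 2 or CREBH-K.O 3 and 3 without CREBH-K.O 2. Of 11 tested genes among 12 of NADPH supply, Taldo1 of the pentose phosphate pathway fell (-0.41 ± 0.086 SE, adjusted p = 0.0199), though not without WT 2, CREBH-K.O 2 or CREBH-K.O 3 (up to 0.0851), and the other 10 did not pass. That 1 call is read against the 10.4% of all tested genes that were called. Without CREBH-K.O 1, 2 genes of that list were called. The entry enzyme G6pdx was low, at 1.94 to 1.97 CPM in WT and 2.70 to 3.40 CPM in CREBH-K.O, and did not pass (0.61 ± 0.21 SE, adjusted p = 0.110).

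Among 12 genes that control acetyl-CoA carboxylase or use its product, 2 fell and 2 rose (list median -0.10). Cpt1a, the carnitine acyltransferase that malonyl-CoA blocks, fell from 643, 854 and 822 CPM in WT to 344, 377 and 382 CPM (-1.07 ± 0.12 SE, edgeR adjusted p = 8.80e-04), together with the pseudokinase gene Trib3 (-1.15). The AMPK subunit Prkab2 (1.03) and the biotinidase gene Btd (0.30) rose. The calls of Prkab2 (without any 1 library except CREBH-K.O 1, adjusted p up to 0.127), Btd (without any 1 except WT 1, up to 0.149) and Trib3 (without CREBH-K.O 3, 0.0507) were lost. Of 16 genes of insulin signalling, 3 fell and 1 rose (list median -0.17). Igfbp1, a gene that insulin represses, was at 69.6, 131 and 65.8 CPM in WT and at 401, 269 and 262 CPM in CREBH-K.O (1.80 ± 0.27 SE, adjusted p = 0.00412). The PI3-kinase subunit Pik3r1 (-0.78) fell with Mtor (-0.44) and Rptor (-0.36), both of the mTORC1 kinase that acts on SREBP-1. The calls of Mtor (without WT 2, CREBH-K.O 2 or CREBH-K.O 3, up to 0.0671) and Rptor (without any 1 library except WT 1, up to 0.113, and with scaling by library size alone) were lost.

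**Figure D5:**
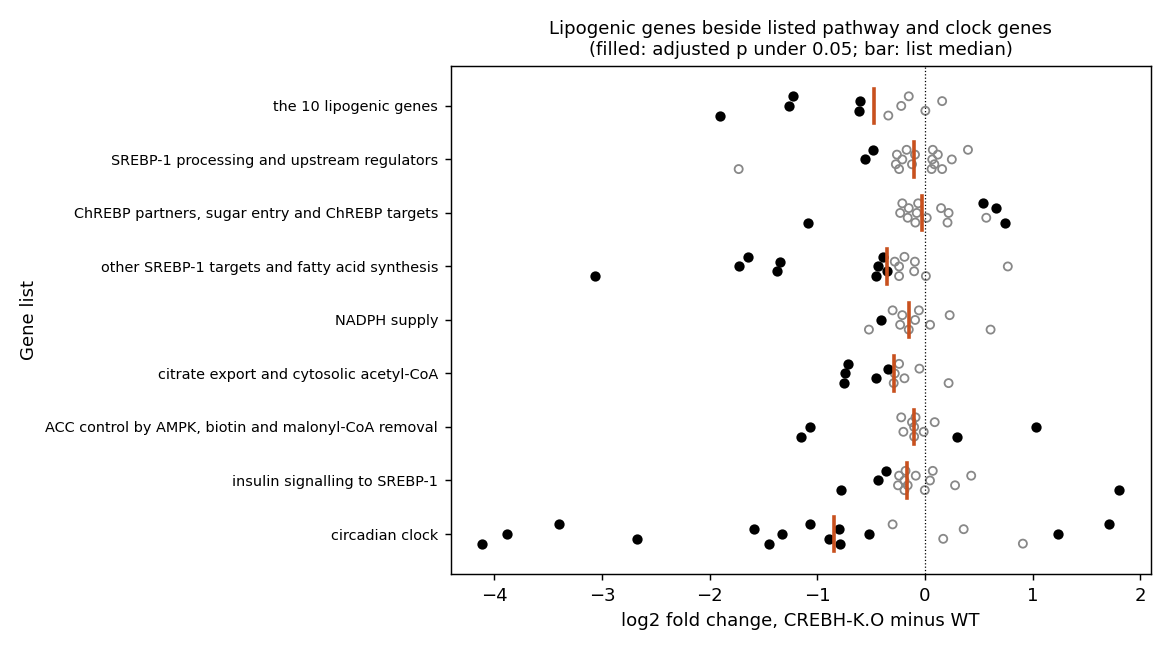
Log2 fold change, CREBH-K.O minus WT, of every tested gene of each list, 1 point per gene, filled where the adjusted p (edgeR) is under 0.05, with a bar at the list median. The medians run from -0.023 for the ChREBP list to -0.47 for the 10 lipogenic genes and -0.85 for clock genes.

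Genes of the circadian clock, which is known to give Srebf1 and its targets a daily rhythm, differed between the same libraries. Of 18 clock genes, 12 fell and 2 rose, with a list median of -0.85. Dbp, an output gene of the clock, was at 52.2, 115 and 144 CPM in WT and at 8.08, 3.92 and 5.97 CPM in CREBH-K.O (-4.11 ± 0.39 SE, edgeR adjusted p = 4.74e-04). Ciart (-3.88), Bhlhe41 (-3.40) and Per3 (-2.67), which act as repressors in the clock, fell too. The 2 that rose were Arntl (1.71 ± 0.37 SE, edgeR adjusted p = 0.0206) and Npas2 (1.24 ± 0.33 SE, adjusted p = 0.0464). Npas2 was low, with means of 0.712 CPM in WT and 1.69 CPM in CREBH-K.O. Ciart kept its direction but lost its call in limma-voom (-3.38, adjusted p = 0.0826) and edgeR's robust fit (-3.88, adjusted p = 0.0690). No clock gene was called higher without WT 2, CREBH-K.O 2 or CREBH-K.O 3, and 2 of the 18 were called, both lower, with CREBH-K.O 1 alone. WT 1 was the lowest WT library for all 12 of these falling clock genes and for 3 of the 5 lipogenic genes that fell (Srebf1, Elovl6 and Thrsp). The top of the order differed. WT 3 was the highest WT library for 11 of the 12 clock genes and 2 of the 5 lipogenic genes. WT 2 was the highest for 1 of the 12 and 3 of the 5. The labels give no hour of collection, and the part of the clock genes in the lipogenic changes was not tested.

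The order of the WT libraries was not the same for every member: WT 2 was the highest WT library for 5 of the 10 genes and the lowest for none, and WT 1 was the lowest for 6. The summed CPM of the 10 genes was 5612, 8989.8 and 5229 in WT 1, 2 and 3. In CREBH-K.O 1, 2 and 3 it was 4030.3, 2729.9 and 2464, so CREBH-K.O 1 stood nearest to WT in this sum. Most of each sum is Scd1, so the order of the sums does not describe the other members. By gene, CREBH-K.O 1 was the highest library of its genotype for 4 of the 10 and the lowest for 3.

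Fat tissue also makes these enzymes, so markers of fat cells and other cell types were read in the same libraries. Of 8 fat cell markers, Adipoq, Lep, Plin1 and Retn had at most 3 counts in any library. Cfd (adipsin) had 174 counts in the WT libraries together and 1 in those of CREBH-K.O. Cfd and Pnpla2, the 2 that could be tested, were both called lower, and their part in the lipogenic changes was not tested. The summed level of the 8, nearly all of it Pnpla2, which hepatocytes also express, was 146 to 228 CPM in WT and 116 to 138 CPM in CREBH-K.O. The 8 hepatocyte markers summed to 60619.6 to 74195 CPM in WT and 70071 to 75252 CPM in CREBH-K.O, the level of a liver library, with 1 marker (Apob) called lower. None of the 8 macrophage markers (64.9 to 139 CPM summed in WT, 72.2 to 87.7 in CREBH-K.O) and none of the 8 endothelial markers (158 to 209 and 180.3 to 183) was called. Of 8 stellate cell markers (60.4 to 80.9 and 80.9 to 93.5), Acta2 rose and the other 7 did not pass. The median log2 fold change of the 8 was 0.53, with 1 of them below 0. Of 5 tested bile duct markers of 6 listed (35.9 to 79.1 and 41.9 to 69.6), Sox9 rose (0.96). The other tested bile duct markers did not pass, with log2 fold changes of -1.11 for Epcam, -0.35 for Krt19, -0.092 for Spp1 and 0.035 for Krt7. Markers of lymphocytes (1.45 to 5.14 and 3.64 to 4.36), neutrophils (1.03 to 1.43 and 1.43 to 3.37) and exocrine pancreas (6.75 to 7.04 and 5.65 to 6.18) were low and uncalled. In bulk tissue, fewer cells of a type and less RNA per cell cannot be told apart.

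The genes whose pattern over the 6 libraries was most like that of a regulator were found by the root mean square difference of centred log2 CPM, among 7627 other genes of at least 10 CPM. For Srebf1 they were Gm20319 (0.079), Sbk1 (0.092), Ppara (0.094), Pptc7 (0.10) and Slc2a2 (0.11). Among the 9 other members, the nearest to Srebf1 were Elovl6 (0.36), Fasn (0.39) and Scd1 (0.39). For Mlxipl the nearest were Paxip1 (0.051), Nsd3 (0.059), Zfp592 (0.059), 1810013L24Rik (0.061) and Adra1b (0.061), none of which passed the test, and the closest members were Me1 (0.24) and Acly (0.25). These likenesses share the genotype difference and the libraries, and have no test.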

How the data were processed

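Each of the 6 liver libraries came with a deposited table of read counts per gene, made with HTSeq per the labels. For its version, the strand setting, the aligner and the genome build, nothing was given in the sources used here. The 55536 identifiers all matched GENCODE M21 (GRCm38), which gave symbols, positions and exon lengths, and from which the build was inferred. Reads that HTSeq put in no gene, 27.4% to 31.2% of each library, were left out.

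The quasi-likelihood test of edgeR 4.0.16 (R 4.3.3) was run on all genes kept by filterByExpr (minimum count 10, minimum total 15), with TMM factors (0.967 to 1.05), no covariate and Benjamini-Hochberg adjustment over 15589 genes. The test was also run on counts simulated from the fitted spread, with 3 independent libraries per group. That run could not check the effect of lost first reads or of samples that share a mouse. CPM used effective library sizes. Standard errors (SE) are the absolute log2 fold change over the square root of F, and intervals use the fit's degrees of freedom (9.22 for the members). Replicates differed beyond sampling noise (chi-square per degree of freedom at least 18.8). Alternatives used DESeq2 1.42.0 and limma 3.58.1.

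Members and lists were chosen with earlier results of these data known. Named genes were the members, fixed regulators, at most 4 called genes of at least 1 CPM per list by size of change, and the 5 nearest in pattern to Srebf1 and Mlxipl. One of the regulators is not reported here. Cs, Pnpla3, G6pdx, Fads1, Acss2, Mcat, Dgat2, Oxsm, Arntl and Npas2 were added after their values were seen, as were the named cell type markers. Promoter sequences are RefSeq's (GRCm38.p6). Without strand information, antisense reads cannot be told apart. Antisense genes cover at most 4.24% of a member's exonic bases, 25.5% of Mid1ip1's, 23.1% of Mpc1's and 22.0% of Pklr's. They also cover 19.4% of those of Txnip, 19.3% of Mlx, 19% of Bhlhe41 and 18% of Dbp.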

Additional observations from a re-analysis of the deposited data

How the results depend on the processing

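Of 5 members called lower, all kept their direction in every alternative. The number of changed members was 5 with DESeq2, library size alone, upper-quartile factors, the stricter filter (at least 1 CPM in 3 libraries) and limma-voom, 6 with no filter, 3 in edgeR's robust fit, where the calls of Scd1 (adjusted p = 0.0731) and Thrsp (0.107) were lost, and 1 with CREBH-K.O 1 alone against WT, a fit whose spread comes from WT, where Srebf1, Scd1, Elovl6 and Thrsp were lost. With 1 library left out it ranged from 2 to 6. Listed pathway genes changed numbered 29 of 101, 12 to 33 with 1 library left out and 9 with CREBH-K.O 1 alone. Over all genes, 1616 changed, 2456 with no filter, 228 with CREBH-K.O 1 alone and 658 to 1806 with 1 library left out. Higher genes made up 37.7% of these calls and 52.8% with library size alone, and the median of all genes moved from 0.025 to 0.10. The sign of Acacb turned (-0.006 with DESeq2, -0.022 with no filter, and -0.19, -0.024, -0.013 and -0.11 without WT 1, WT 3, CREBH-K.O 1 or CREBH-K.O 2). So did that of Acly (-0.11) with CREBH-K.O 1 alone, Scd2 with 1 library left out (-0.44 to 0.004, highest without WT 2) and Insig1 without CREBH-K.O 1 (0.033). None of these passed there. The log2 difference of Mlxipl/Mlx, -0.006, ranged from -0.12 to 0.070 with 1 library left out. Those of Acacb/Acaca (0.24 to 0.48), Srebf1/Srebf2 (-1.36 to -0.92), Scd1/Scd2 (-1.29 to -0.86) and Elovl6/Elovl5 (0.73 to 0.84) kept their sign. The causes were not tested, apart from the fewer samples or genes of an alternative. No paired analysis was possible because the labels number the 6 libraries in 1 series and pair none.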
